A study of Mus musculus with 16 samples.

Results

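The Btg and Tob genes encode a small family of antiproliferative proteins that share a conserved N-terminal domain. The 6 mouse members named here, Btg1, Btg2, Btg3, Btg4, Tob1 and Tob2, were found by symbol among the 22375 Ensembl genes of the deposited count tables. For Tob2, 2 Ensembl genes carry the symbol. All 6 members were present in the tables, and 5 of them had enough counts to be tested.

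Btg and Tob proteins bind the catalytic subunits of the CCR4-NOT complex, which shortens the poly(A) tails of mRNAs, and so link growth control to mRNA decay. Several members slow the passage from G1 to S phase when they are overproduced. Btg2 is a classical target of p53 after DNA damage, Btg1 is known as a target of FoxO factors, the Tob proteins carry motifs that bind the poly(A)-binding protein, and Btg4 acts in the maturing oocyte and the early embryo.

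RNA depleted of ribosomal RNA was sequenced from mouse embryonic stem (ES) cells of strain 129/OLA, either wild type (WT, line E14TG2a) or Cfp1−/−, which lack the CpG-binding protein Cfp1 of the Set1 histone methyltransferase complex. Cells of each genotype were left untreated or exposed for 6 hours to doxorubicin, a topoisomerase poison that breaks DNA. The treatment protocol gives the dose as 1 μM, whereas the label of each treated sample gives 1 mM. Each of the 4 groups had 2 biological replicates, each sequenced in 2 technical replicates that were summed here, so n = 2 throughout. The labels do not say that the biological replicates came from separate cultures, and the p-values then measure only the spread between these samples.

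The total count was 29422711 and 24158994 in the untreated WT replicates, 14880589 and 18551086 in the treated WT replicates, 23383421 and 25308913 in the untreated Cfp1−/− replicates and 17866427 and 18458036 in the treated Cfp1−/− replicates. A normalized count is the summed count of a replicate divided by its DESeq size factor, as deposited. For both treated groups, WT and Cfp1−/−, replicate 1 stood apart, since the counts of the technical replicates differed by more than sampling noise. Their chi-square, divided by its degrees of freedom, was 9.61 and 42.9 there, and 0.998 to 1.05 in the other 6 pairs. Of this pair in treated Cfp1−/− cells, the second library had lost counts. Among genes with at least 200 counts in the first library, 209 of 291 on chromosome 19, 225 of 280 on X and 5 of 5 on Y had 0 in the second, those on chromosome 19 starting at position 5849702. No family member lies on these chromosomes.

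Cxxc1, the gene of Cfp1, had 1412 and 1117 raw counts in the untreated WT replicates and 616 and 829 in the treated ones. In Cfp1−/− cells it had 4 and 3 raw counts without and 5 and 1 with doxorubicin, so all 8 libraries carried the genotype of their label.

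The summed level of 10 pluripotency genes was 97946 and 71730.0 normalized counts in untreated WT, 37770.4 and 27609 in treated WT, 85122 and 84116 in untreated Cfp1−/− and 40264 and 32390 in treated Cfp1−/− cells. Tdgf1 or Pou5f1 was the most abundant of them, except in replicate 2 of treated Cfp1−/− cells, where it was Fgf4. The defining genes Pou5f1, Nanog and Sox2 were read in every library. The list was lower in the treated libraries of both genotypes, the same libraries in which members of the family were high, and its part in the values of the family was not tested. In these bulk samples, fewer cells of a type and less RNA per cell cannot be told apart.

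Among markers of other cells, the 9 oocyte genes summed to between 45.4 and 79.0 normalized counts in the WT and between 139 and 229.9 in the Cfp1−/− libraries. The most abundant were Zp3 or Bmp15 in WT and Zp2 in Cfp1−/− cells, and the defining gene Zp3 lay between 12.7 and 62.0. Of the 6 genes of 2-cell-like cells 4 were in the tables, led by Zscan4c or Zscan4d, with sums from 17.0 to 67.6 in WT and from 203 to 371 in Cfp1−/− cells. The 8 fibroblast genes summed to between 18162 and 49129, most of it from Fn1, which ES cells also transcribe, while the defining gene Col1a1 lay between 5.07 and 365.

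The 8 primitive endoderm genes summed to between 691 and 3446 normalized counts, led by Col4a1, with the defining gene Gata4 between 5.56 and 28.5. The 6 mesoderm genes summed to between 168 and 598, led by Kdr, Eomes or T, and T itself lay between 13.1 and 167. Of the 6 neuroectoderm genes 5 were in the tables, with sums from 536 to 3785, led by Nes or by Pax6, and Pax6 lay between 9.64 and 1761. The defining markers of all 7 lists were above 0 in all 8 libraries, although other listed genes, such as Mesp1, Col3a1 and Zp2, were at 0 in some. With doxorubicin 3 of the 4 genes of 2-cell-like cells were called higher in WT and 1 in Cfp1−/− cells, beside 26.5% and 27.8% of all tested genes. Of the 10 pluripotency genes 0 were called higher, while 9 were called lower in WT and 8 in Cfp1−/− cells. Over all tested genes 21.8% and 21.0% were called lower. Of the 7 tested primitive endoderm genes 1 was called higher in WT and 3 in Cfp1−/− cells, and 0 lower. Fibroblast, mesoderm and oocyte genes were called in both directions across the lines, and neuroectoderm genes only lower. Pdgfra, of primitive endoderm, had log2 fold changes of 3.02 in WT and 1.58 in Cfp1−/− cells, and Pax6 had -4.6 and -3.1. The part of these cell types in the values below was not tested.

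The first comparison asked how the family responded to doxorubicin in WT ES cells. Btg2, Tob1 and Btg1 rose, whereas Tob2 and Btg3 did not pass the test and Btg4 was too low to be tested. Of the 6 members, 3 were thus called higher and 0 lower at an adjusted p under 0.05. Of all 15758 genes tested 26.5% were called higher and 21.8% lower, so a call as such was frequent. When calls also had to reach 2.5-fold with 200 normalized counts on average, 3 members were called higher, and 5.10% of the tested genes. The median log2 fold change of the 5 tested members was 1.96, beside 0.06 over all tested genes.

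Btg2 (ENSMUSG00000020423), a classical target of p53, lies on the minus strand of chromosome 1 from 135971747 to 135975697 (NCBIm37). It had 415 and 628 normalized counts in the untreated WT replicates and 4840 and 6053 in the treated ones. In Cfp1−/− cells it had 778 and 791 normalized counts without and 5439 and 5167 with doxorubicin. In both lines the treated replicates lay far above the untreated ones, with a ratio of the group means of 10.5 in WT and 6.76 in Cfp1−/− cells. The log2 fold change was 3.43 in WT (SE 0.207, adjusted p = 4.26e-06) and 2.80 in Cfp1−/− cells (SE 0.201, adjusted p = 1.07e-05) by the quasi-likelihood test of edgeR, adjusted after Benjamini and Hochberg. By replicate number the log2 ratio was 3.55 and 3.27 in WT and 2.81 and 2.71 in Cfp1−/− cells.

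Tob1 (ENSMUSG00000037573), which joins the deadenylase to poly(A)-binding protein and also restrains Smad signalling, lies on the plus strand of chromosome 11 from 94072768 to 94076809. It had 309 and 311 normalized counts in the untreated WT replicates and 1592 and 1285 in the treated ones. In Cfp1−/− cells the values were 676 and 548 without and 2094 and 1848 with doxorubicin. The treated replicates exceeded the untreated ones in each line, and all 4 groups were apart from each other. The log2 fold change was 2.26 in WT (SE 0.176, adjusted p = 1.36e-05) and 1.73 in Cfp1−/− cells (SE 0.17, adjusted p = 4.86e-05) from edgeR's test.

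Btg1 (ENSMUSG00000036478), the closest relative of Btg2 and a cofactor of the arginine methyltransferase Prmt1, lies on the plus strand of chromosome 10 from 96079635 to 96085447. It had 411 and 532 normalized counts in the untreated WT replicates and 2186 and 1377 in the treated ones. In Cfp1−/− cells it had 445 and 347 normalized counts without and 1450.2 and 1256 with doxorubicin. Treated and untreated replicates did not overlap in either line, while the genotypes overlapped in both conditions. The log2 fold change was 1.96 in WT (SE 0.245, adjusted p = 0.000173) and 1.81 in Cfp1−/− cells (SE 0.244, adjusted p = 0.000292) from edgeR's test. The treated WT replicates lay far apart, so the log2 ratio by replicate number was 2.41 and 1.37.

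**Figure D1:**
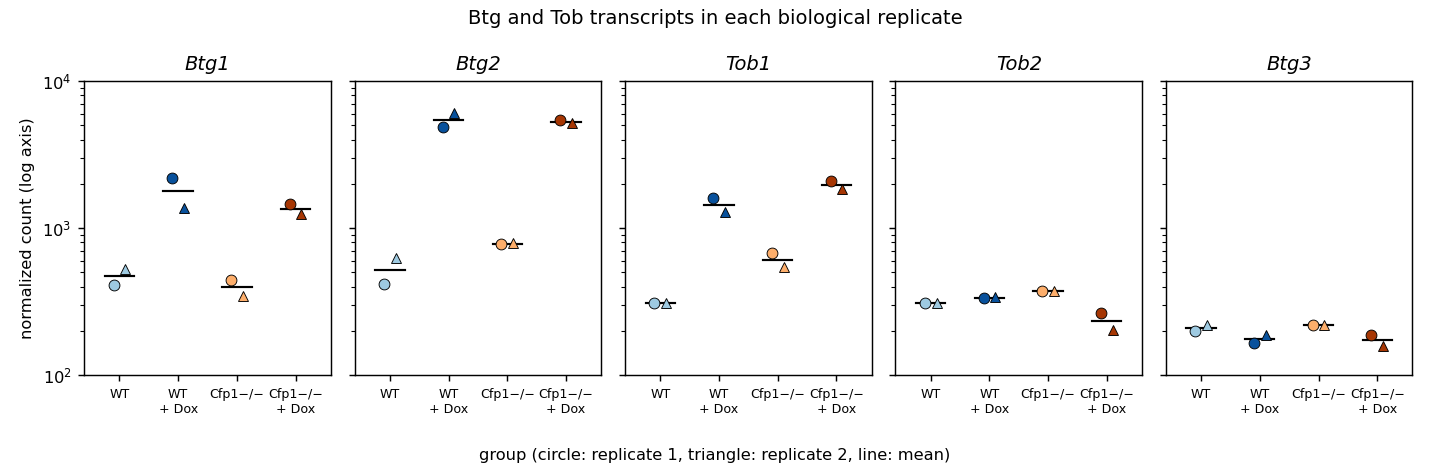
Normalized count (log axis) of 5 family members in each biological replicate of the 4 groups, with replicate 1 as a circle, replicate 2 as a triangle and the group mean as a line. Btg2 lay between 4840 and 6053 in the treated replicates, Tob1 and Btg1 were also higher with doxorubicin (Dox) in both lines, and Tob2 and Btg3 stayed between 158 and 374. Btg4 is not drawn, since most of its values were 0.

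Tob2 (ENSMUSG00000048546), the paralog of Tob1, lies on the minus strand of chromosome 15 from 81678700 to 81688756. It had 310.0 and 309 normalized counts in untreated WT cells, and 337 and 338 after treatment. In Cfp1−/− cells it had 372 and 374 normalized counts without and 263 and 204 with doxorubicin. The treated replicates were thus the higher ones in WT and the lower ones in Cfp1−/− cells. The WT log2 fold change was 0.17 (SE 0.19, 95% interval -0.26 to 0.60, adjusted p = 0.485; with total count scaling 0.49, adjusted p = 0.056), and in Cfp1−/− cells Tob2 fell by 0.63 on the log2 scale (SE 0.191, 95% interval -1.06 to -0.20, adjusted p = 0.0214) by edgeR's test.

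The fall of Tob2 was not called when replicate 1 or 2 of untreated or replicate 2 of treated Cfp1−/− cells was left out (adjusted p = 0.0663, 0.0726 and 0.157 from edgeR's test, with log2 fold changes of -0.64, -0.64 and -0.45), nor with total count scaling (log2 fold change -0.42, adjusted p = 0.0961). Over all 17 alternatives its adjusted p ran from 0.00741 to 0.157. The other Ensembl gene of this symbol (ENSMUSG00000078960) overlaps it by 325 exon bases on the same strand. Reads that lie on both are not counted, and it had between 0 and 6 raw counts in a library, so the values of Tob2 rest on the exon sequence that they do not share.

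Btg3 (ENSMUSG00000022863), a more distant member that binds E2F1, lies on the minus strand of chromosome 16 from 78360105 to 78377437. It had 199.6 and 219 normalized counts in untreated WT cells, and 166 and 187 after treatment. In Cfp1−/− cells it had 219.7 and 221 without and 188 and 158 with doxorubicin. Treated values were the lower ones in both lines, but the log2 fold changes of -0.20 in WT (SE 0.212, adjusted p = 0.473) and -0.30 in Cfp1−/− cells (SE 0.211, adjusted p = 0.261) did not pass edgeR's test. With total count scaling, which moved the median of all genes by 0.31 in WT, the log2 fold change of Btg3 became 0.12 in WT, and -0.09 in Cfp1−/− cells. It was -0.12 in WT without replicate 1 of treated WT cells, and in Cfp1−/− cells -0.18 without replicate 2 and -0.46 without replicate 1 of the treated ones.

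Btg4 (ENSMUSG00000032056), the oocyte member, lies on the plus strand of chromosome 9 from 50924106 to 50927980. It had 0 raw counts in both replicates of untreated WT and of untreated Cfp1−/− cells, 0 and 2 in treated WT and 0 and 4 in treated Cfp1−/− cells. All but the last of these lie at or below 3 counts, and no fold change is given.

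The second comparison asked for the response to doxorubicin in Cfp1−/− cells. Of the 6 members, 3 were called higher and 1 lower, beside 27.8% of the tested genes higher and 21.0% lower. The members called higher were again Btg1, Btg2 and Tob1, and the one called lower was Tob2. With the limits of 2.5-fold and 200 mean normalized counts, 3 members were called higher, beside 5.38% of the tested genes.

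Whether the response differed between the lines was tested as an interaction, the response in Cfp1−/− minus that in WT cells. None of the 5 tested members was called by edgeR's test, 2 of them, Btg2 and Tob2, had an unadjusted p under 0.05, and DESeq2 called 0. Over all genes 0.235% were called. The difference was -0.64 for Btg2 (SE 0.268, 95% interval -1.24 to -0.03, adjusted p = 0.444), -0.53 for Tob1 (SE 0.237, adjusted p = 0.471) and -0.80 for Tob2 (SE 0.27, 95% interval -1.40 to -0.20, adjusted p = 0.328) by edgeR's test. For Btg1 and Btg3 it was -0.15 (SE 0.336) and -0.11 (SE 0.299), and edgeR gave adjusted p-values of 0.923 and 0.939. The estimate for Btg1 became 0.22 without replicate 1 of treated WT and 0.03 without replicate 1 of untreated Cfp1−/− cells, and that for Btg3 0.02 without replicate 2 of treated Cfp1−/− cells. That for Btg2 was -0.41 without replicate 1 and -0.995 without replicate 2 of untreated WT cells. The intervals of Btg2 and Tob2 lay below 0, but neither difference passed the adjustment over all genes, and equal responses were not shown for any member.

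The genotypes were next compared without doxorubicin. The WT cells were the line E14TG2a, and the paper refers to earlier work for the Cfp1−/− cells. No further line of either genotype is named. Effects of genotype and of line therefore cannot be told apart, with or without doxorubicin. Here 2 of the 6 members, Tob1 and Btg2, were called higher and 0 lower in Cfp1−/− cells, beside 17.9% of the tested genes higher and 16.1% lower. With the limits of fold and mean count no member was called, and of all 15758 tested genes only 287 were called higher and 238 lower. The ratio of the group means was 1.98 for Tob1 and 1.51 for Btg2, and in neither did the untreated replicates of the lines overlap.

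For Tob1 the log2 fold change between the untreated lines was 1.01 (SE 0.172, adjusted p = 0.0023 by edgeR), called under all 17 alternatives. Genes of chromosome 11, where Tob1 lies, were shifted as a group in this comparison. Each chromosome was looked at, a choice made after seeing these values, and the 1279 tested genes of chromosome 11 had a median log2 fold change of 0.51, and 40.8% of them were called higher. Chromosome 7 had a median of 0.53, while those of the chromosomes of Btg1, Btg2, Btg3 and Tob2 lay between -0.16 and -0.07. The part of this shift in the value of Tob1 was not tested.

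For Btg2 the log2 fold change between the untreated lines was 0.62 (SE 0.194, adjusted p = 0.033 from edgeR's test), close to the threshold. It was not called in a fit of the untreated groups alone (log2 fold change 0.65, adjusted p = 0.0543), and it was 0.94 without replicate 2 of untreated WT cells. Nor was it called without replicate 1 of untreated WT cells (log2 fold change 0.36, adjusted p = 0.198) or without replicate 1 or 2 of untreated Cfp1−/− cells (0.65 and 0.62, adjusted p = 0.0953 and 0.0995). Leaving out replicate 1 or 2 of treated Cfp1−/− cells, which are in neither group compared, left the fold change at 0.62 and brought the adjusted p of edgeR to 0.0503 and 0.0506. Over all 17 alternatives the adjusted p ran from 0.00685 to 0.198.

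Btg1, Btg3 and Tob2 were not called between the untreated lines. Their log2 fold changes were -0.22 (SE 0.241), 0.10 (SE 0.209) and 0.30 (SE 0.189), for which edgeR gave an adjusted p of 0.506, 0.732 and 0.249. The value of Btg1 ran from -0.39 without replicate 1 of untreated Cfp1−/− cells to -0.03 without replicate 2 of untreated WT cells, and was -0.39 without replicate 1 of the latter, -0.04 without replicate 2 of the former and -0.03 with total count scaling. That of Btg3 was 0.05 and 0.16 without replicate 1 and 2 of untreated WT cells, and total count scaling gave 0.29 for Btg3 and 0.49 for Tob2. The lines overlapped in Btg1, whereas all values of Tob2 and Btg3 were the higher ones in untreated Cfp1−/− cells. For Btg3 the nearest values were almost equal, at 218.9 normalized counts in WT and 219.7 in Cfp1−/− cells. The share of tested genes whose replicates do not overlap was not counted in any comparison.

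Under doxorubicin no member was called between the genotypes by edgeR's test, beside 15.1% of the tested genes called higher and 10.8% lower in Cfp1−/− cells. For Tob1 and Tob2 the unadjusted p was under 0.05, and DESeq2 called 0 members. With the replicate number as a block, edgeR called Tob1 and Tob2 (adjusted p = 0.0138 and 0.046). No source says what a number shares. Tob1 had a log2 fold change of 0.48 (SE 0.165, adjusted p = 0.058 from edgeR's test, 0.0138 to 0.28 over the alternatives), and the median over the genes of chromosome 11 was 0.51. Among other settings, it was called with total count scaling (adjusted p = 0.0261) and from the first technical replicates alone (adjusted p = 0.0449), both by edgeR. Tob2 had a log2 fold change of -0.50 (SE 0.192, adjusted p = 0.0818, 0.0326 to 0.374 over the alternatives). It too was called under several settings, among them -0.59 without the technical replicate that had lost counts (adjusted p = 0.0326 by edgeR) and -0.59 from the first technical replicates alone (adjusted p = 0.0472). The values of Btg2 and Btg3 were -0.01 (SE 0.186) and -0.01 (SE 0.213), both above 0 with total count scaling or without replicate 2 of treated WT or of treated Cfp1−/− cells, and that of Btg1 was -0.37 (SE 0.234, adjusted p = 0.271 from edgeR's test). The value of Btg1 rested on the treated WT replicates, being -0.0065 without replicate 1 and -0.67 without replicate 2 of them, while that of Tob2 was -0.32 without replicate 2 of treated Cfp1−/− cells.

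**Figure D2:**
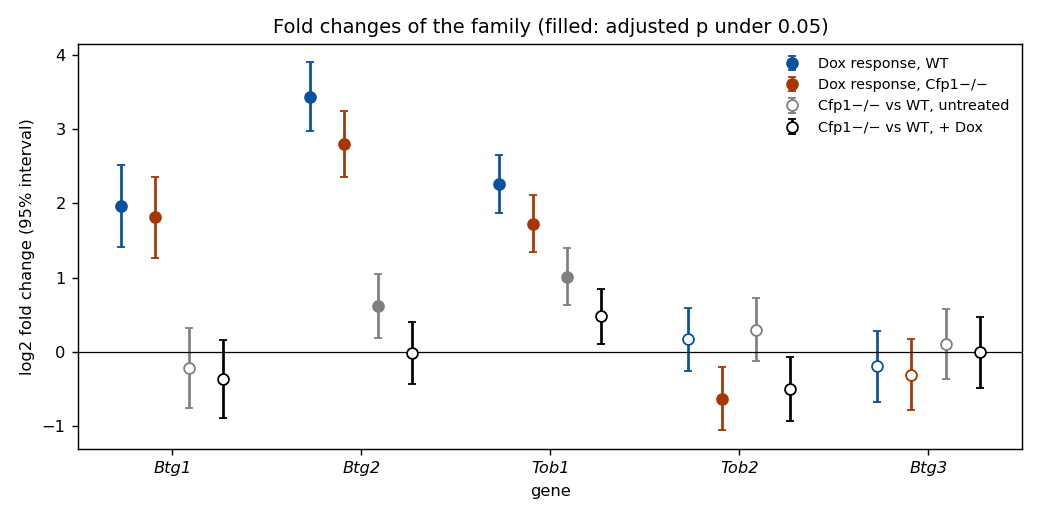
Log2 fold changes (y axis) of 5 family members from edgeR, with 95% intervals, for the doxorubicin (Dox) response in WT and in Cfp1−/− cells and for Cfp1−/− against WT cells without and with doxorubicin. Filled points have an adjusted p under 0.05. The responses of Btg1, Btg2 and Tob1 lie between 1.73 and 3.43, and the difference between the lines that stands highest is that of Tob1 without doxorubicin, at 1.01.

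The order of the members was read on normalized counts per kb of exon, since their exon lengths run from 1439 bases in Btg3 to 5010 in Btg1. In untreated WT cells Btg2 had a mean of 190.0 per kb, Btg3 145, Tob1 135, Btg1 94.1 and Tob2 77.4. The replicates of Btg2 and Btg3 overlapped, so these neighbours did not differ beyond their spread. Further down the replicates did not overlap at these lengths, but the steps from Btg3 (SD 9.49 per kb) to Tob1 and from Btg1 (SD 17.0 per kb) to Tob2 were about as large as the SD of the former, so their order is not firm. The length of Tob2 includes the 325 exon bases on which reads are not counted. Its values per kb are therefore too low, and without these bases it would lie closer to Btg1 in untreated WT cells. The median over all tested genes was 92.3 per kb in this group, close to the level of Btg1. In untreated Cfp1−/− cells Btg2 had 286 per kb and Tob1 268, with overlapping replicates, followed by Btg3 at 153, Tob2 at 93.3 and Btg1 at 79.1 (SD 13.8), the last step again being close to the SD of Btg1.

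With doxorubicin the order became Btg2, Tob1, Btg1, Btg3 and Tob2 in both lines, with no overlap between neighbours. Btg2 reached 1986 per kb in WT and 1933 in Cfp1−/− cells, a level above 97.3% and 97.5% of the tested genes. Tob1 had 629 and 861 per kb and Btg1 356 and 270.1, while Btg3 had 123 and 120.2 and Tob2 84.5 and 58.6. Btg4 was last in every group.

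Genes with the most similar pattern were sought among 9498 others that averaged at least 200 normalized counts, by Pearson correlation of log2 normalized counts over the 8 biological replicates. These replicates share the treatment and the genotype, and the correlations are given as a description. For Btg2 they were Pkp3, Acaa1b and Scarb1, with r of 0.996 each. For Tob1 they were BC031353, Ppm1d and Pm20d1 (r of 0.997, 0.996 and 0.996), and for Btg1 Ick, Vamp1 and Rab23 (r of 0.996, 0.995 and 0.994). Tob2 had looser neighbours, Ppt1, Fscn1 and Raver1, with r from 0.936 to 0.938. The mean of Btg3 lay below 200.

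The 3 members that rose have 2 exon blocks each and span 5813 bases in Btg1, 3951 in Btg2 and 4042 in Tob1. Tob2, also with 2 exon blocks, spans 10057 bases, Btg3 spans 17333 with 6, and Btg4, which was at or near 0 throughout, spans 3875 with 5. Of the 2593 tested genes that span at most as much as Btg1, 22.5% were called higher in WT and 21.6% in Cfp1−/− cells, and of the 13165 longer ones 27.3% and 29.1%. The limit was taken from Btg1, and the difference between these shares was not tested.

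Promoter windows from 250 bases before to 50 after the start site were taken from RefSeq (GRCm38.p6) for all 6 members, and each matched NCBIm37 at 1 place. Their ratio of observed to expected CpG was 0.833 in Btg1, 0.827 in Btg2, 1.02 in Tob1, 0.711 in Tob2, 0.862 and 0.361 in the windows of Btg3 and 0.0906 in Btg4, with a median of 0.384 over all 32851 windows. The windows of the members that rose in both lines are shown for their motifs, 5′ to 3′ on the gene's strand, with coordinates in NCBIm37. Capitals mark each match, on either strand, to the cAMP response element TGACGTCA, to its core TGACG, to the AP-1 motif TGANTCA, to the CCAAT box, to the TATA box written TATAAA, to the GC box GGGCGG, to the FoxO motif TGTTTAC or to the p53 consensus decamer.
Btg1, chr10:96079385-96079684, plus strand: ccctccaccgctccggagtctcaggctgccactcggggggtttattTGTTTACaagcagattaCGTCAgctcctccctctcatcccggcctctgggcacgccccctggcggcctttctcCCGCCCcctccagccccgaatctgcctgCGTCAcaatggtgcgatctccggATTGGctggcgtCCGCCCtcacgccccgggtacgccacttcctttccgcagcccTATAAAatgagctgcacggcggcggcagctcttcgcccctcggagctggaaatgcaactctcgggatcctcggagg
Btg2, chr1:135975683-135975982, minus strand: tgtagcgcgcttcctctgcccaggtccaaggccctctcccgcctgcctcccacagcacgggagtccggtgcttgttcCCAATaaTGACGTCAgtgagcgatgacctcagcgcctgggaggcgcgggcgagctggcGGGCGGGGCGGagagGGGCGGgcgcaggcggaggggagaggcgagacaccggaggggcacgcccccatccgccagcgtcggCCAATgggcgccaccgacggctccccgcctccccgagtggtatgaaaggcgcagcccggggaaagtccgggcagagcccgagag
Tob1, chr11:94072518-94072817, plus strand: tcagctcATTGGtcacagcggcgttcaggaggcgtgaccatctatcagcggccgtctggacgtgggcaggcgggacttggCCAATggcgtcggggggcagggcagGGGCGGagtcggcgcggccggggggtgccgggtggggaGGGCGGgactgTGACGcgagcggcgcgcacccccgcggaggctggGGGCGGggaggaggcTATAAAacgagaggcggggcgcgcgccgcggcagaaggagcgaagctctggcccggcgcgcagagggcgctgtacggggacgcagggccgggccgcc

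The complete cAMP response element, which contains the core, was found in Btg2 alone among the members, and in 1.79% of all windows. The core alone was present in Btg1 and Tob1, and the core in any setting in 20.8% of all windows. TATAAA was found in Btg1 and Tob1 (13.6% of all windows), and the FoxO motif in Btg1 alone (3.65%). CCAAT was found in the windows of every member except Tob2 (37.4% of all windows), and the GC box in those of every member except Btg4 and 1 window of Btg3 (35.7%). No member window held the p53 decamer (8.36% of all windows) or TGANTCA (7.81%). Only matches without a mismatch to the consensus were sought, and only in these windows. A p53 site with mismatches or farther away would not have been found. These motifs were chosen after the sequences had been seen, and a match describes only the letters in a window.

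Among the partners of the family, the 12 genes of the CCR4-NOT complex were mostly lower with doxorubicin. In WT cells 7 were called lower and 0 higher, with a median log2 fold change of -0.52 beside 0.06 over all tested genes. In Cfp1−/− cells 7 were called lower and 1, Tnks1bp1, higher (median -0.50), and these counts were the same without the technical replicate that had lost counts. Over all tested genes 21.8% and 21.0% were called lower and 26.5% and 27.8% higher in WT and Cfp1−/− cells. Cnot7 and Cnot8 encode the deadenylase subunits that Btg and Tob proteins bind. Cnot7 went from 3114 ± 142 to 1847 ± 46.6 normalized counts (SD, n = 2) with doxorubicin in WT, or -0.71 as a log2 fold change (SE 0.127, adjusted p = 0.00145 from edgeR's test), and Cnot8 from 2528 ± 10.5 to 1734 ± 37.9, a log2 fold change of -0.50 (SE 0.119, adjusted p = 0.00703).

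In Cfp1−/− cells the value for Cnot8 was -0.14 (adjusted p = 0.357 from edgeR's test). The difference between the lines was not called either, at 0.36 with an adjusted p of 0.496. The largest falls in WT were those of Cnot2, Cnot6l and Cnot1, the last being the scaffold of the complex, with log2 fold changes of -0.997, -0.84 and -0.77.

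Of the 8 genes of the PAN2-PAN3 deadenylase and of the poly(A)-binding proteins, 2 were called lower and 0 higher in each line, a share of lower calls near the 21.8% and 21.0% of all tested genes in WT and Cfp1−/− cells. These were Pan3 and Paip1 in WT, with log2 fold changes of -0.56 and -0.52 (SE 0.13 and 0.165). Without the technical replicate that had lost counts 1 gene was called lower in Cfp1−/− cells. Pabpc1, which the Tob proteins bind, had 26097 ± 585 normalized counts in untreated and 32468 ± 10306 normalized counts in treated WT cells, and was not called (adjusted p = 0.268 from edgeR's test). The median of the list was -0.07 in WT and -0.01 in Cfp1−/− cells.

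Of 16 genes of decapping and of 5′ to 3′ decay, 4 were called lower and 1 higher in WT (median log2 fold change -0.25), and 5 lower and 1 higher in Cfp1−/− cells (median -0.21). Without the technical replicate that had lost counts 6 were called lower in Cfp1−/− cells, where Patl1, which lies in the lost stretch, had a log2 fold change of -1.16 with and -0.84 without it. Over all tested genes 21.8% were called lower and 26.5% higher in WT, and 21.0% and 27.8% in Cfp1−/− cells, so the share of lower calls was near the background in WT. The gene called higher in both was Edc4, a scaffold of decapping, with 0.82 in WT (SE 0.121) and 0.40 in Cfp1−/− cells (SE 0.12). Dcp2, the decapping enzyme, and the helicase Ddx6 had log2 fold changes of -0.61 and -0.56 in WT cells.

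Of 19 RNA-binding proteins that bring deadenylases to mRNAs 18 were tested, and 4 were called higher and 3 lower in WT cells, beside 5 and 2 in Cfp1−/− cells. Without the technical replicate that had lost counts, 6 were called higher in Cfp1−/− cells. Over all tested genes 26.5% and 27.8% were called higher and 21.8% and 21.0% lower in the same comparisons, so the counts of the list were near the background. Nanos1 went from 100.3 ± 29.9 to 501 ± 87.6 normalized counts in WT cells, a log2 fold change of 2.36 (SE 0.332). Nanos1 lies in the stretch that had lost counts, and its value in Cfp1−/− cells was 1.48 with and 1.72 without the affected technical replicate. Cpeb2 had a log2 fold change of 2.09 in WT (SE 0.256) and Samd4 one of -2.21 (SE 0.466), its untreated WT replicates lying at 296 and 814 normalized counts.

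Cpeb3, a translational regulator that is known to recruit Tob, had a log2 fold change of 1.00 in WT cells (SE 0.287, adjusted p = 0.0168 from edgeR's test). In Cfp1−/− cells it was 0.51 (adjusted p = 0.159) and, without the affected technical replicate, 0.78 (adjusted p = 0.0202), since Cpeb3 too lies in the lost stretch. The median of the adaptor list was 0.21 in WT and 0.01 in Cfp1−/− cells.

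A further list held 14 partners, upstream factors and growth genes linked to the family, of which 7 were called higher and 4 lower in WT and 7 higher and 5 lower in Cfp1−/− cells. The shares over all tested genes were 26.5% higher and 21.8% lower in WT and 27.8% and 21.0% in Cfp1−/− cells. Rb1, whose protein gates entry into S phase, went from 458 ± 18.6 to 3030.3 ± 364 normalized counts in WT cells, a log2 fold change of 2.77 (SE 0.191). Foxo3, a factor known to act on Btg1, had log2 fold changes of 2.03 in WT (SE 0.154) and 1.56 in Cfp1−/− cells (SE 0.152). Smad9 and Hoxb9, the latter a partner of Btg1 and Btg2, had larger values of 2.79 and 2.84 in WT but means of at most 65.7 normalized counts in any group.

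Cyclin D1 is known to be repressed by Btg2 and Tob1. Its gene Ccnd1 went from 3635 ± 496 to 1272 ± 238 normalized counts in WT and from 1899.7 ± 203 to 703 ± 249 in Cfp1−/− cells, with log2 fold changes of -1.47 (SE 0.238) and -1.39 (SE 0.24). Ccne1, for cyclin E1, had log2 fold changes of -1.52 and -1.22. Prmt1, the methyltransferase that Btg1 and Btg2 bind, was not called in either line (adjusted p = 0.118 and 0.484 from edgeR's test).

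Trp53, the gene of p53, was not called in WT cells, at 2378 ± 134 and 2461 ± 247 normalized counts, and fell by 0.51 on the log2 scale in Cfp1−/− cells (adjusted p = 0.0173 from edgeR's test), from 4496 ± 244 to 3063 ± 488. All 12 other p53 target genes were called higher in WT cells, with a median log2 fold change of 1.69, and 11 in Cfp1−/− cells, with a median of 1.30, the exception being Aen, beside 26.5% and 27.8% of all tested genes. The largest values in WT were those of Cdkn1a, Pmaip1 and Mdm2, at 3.33, 2.79 and 2.69. The WT value of Btg2, 3.43 (SE 0.207), and that of Cdkn1a (SE 0.257) differed by less than their SEs. In Cfp1−/− cells Plk2, Pmaip1 and Btg2 had log2 fold changes of 3.06 (SE 0.197), 3.12 (SE 0.238) and 2.80 (SE 0.201), and these differences between genes were not tested.

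Between the untreated lines, 4 of the 14 partners and growth genes were called higher in Cfp1−/− cells and 4 lower, beside 17.9% and 16.1% of all tested genes. Higher were Trp53 (log2 fold change 0.95, SE 0.149), Rb1 (0.91, SE 0.183), Smad9 and Hoxb9, and lower were Ccne1 (-1.41, SE 0.148), Ccnd1 (-0.91, SE 0.234), Smad5 and Pcna. The latter 4 were also the ones called lower under doxorubicin, where 0 were called higher, beside 10.8% of all tested genes lower and 15.1% higher. Ccnd1 and Ccne1 lie on chromosome 7, whose median was 0.53 between the untreated lines. Trp53 and Hoxb9 lie on chromosome 11 with Tob1, where the median was 0.51.

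**Figure D3:**
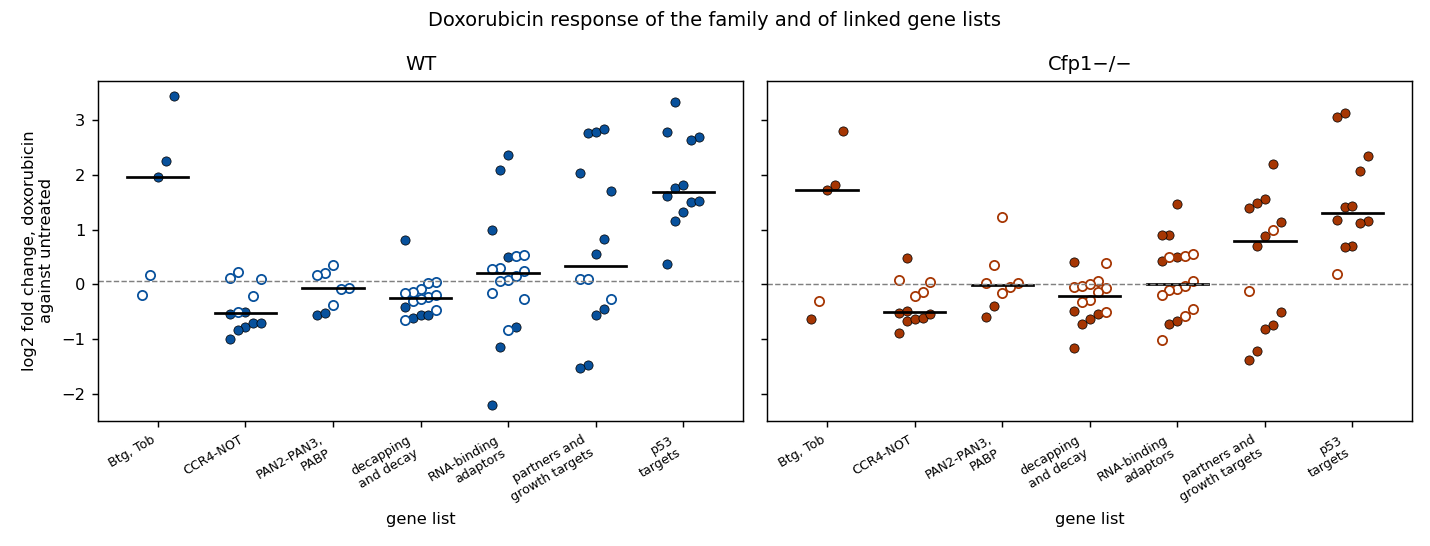
Log2 fold change with doxorubicin (y axis) of each tested gene of the family and of 6 linked lists in WT (left) and Cfp1−/− cells (right). Filled points have an adjusted p under 0.05 from edgeR, black lines are list medians and the dashed line is the median of all tested genes. The family has a median of 1.96 in WT, the p53 targets 1.69 and the CCR4-NOT genes -0.52.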

How the data were processed

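Stranded libraries were made by the authors after removal of ribosomal RNA, reads were mapped to NCBIm37 with STAR, and HTSeq-count assigned them to Ensembl genes in its union mode. They deposited raw counts of each technical replicate without normalization. The authors also deposited a normalized signal, the summed counts of each biological replicate divided by a DESeq size factor. Here technical replicates were summed and fitted with edgeR 4.0.16 in R 4.3.3 (filterByExpr, TMM, a coefficient for each of 4 groups, glmQLFit, glmQLFTest). P-values were adjusted by Benjamini and Hochberg over 15758 genes, and a call is an adjusted p under 0.05. The fits were tested on simulated counts. Exon lengths came from GENCODE, which held 22324 of the 22375 genes. Tested alternatives were DESeq2 1.42.0, other scalings, filters, call limits, subsets of libraries and a replicate block. Every member was named. From each linked list the 3 called genes with the largest log2 fold change in WT and those with a described role were named. Other genes in counts of 5 or fewer were named after their values were seen. Members and lists were chosen with earlier results of these data known.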

Additional observations from a re-analysis of the deposited data

Results flagged for a closer look

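Tob2 drew attention because its treated replicates were both above the untreated ones in WT cells and both below them in Cfp1−/− cells. The rise in WT was small, a log2 fold change of 0.17 that was not called (adjusted p = 0.485 by edgeR). The share of genes with such opposite directions was not counted. The response in Cfp1−/− cells minus that in WT cells was -0.80 on the log2 scale (SE 0.27, unadjusted p = 0.0147), which did not pass the threshold after adjustment (adjusted p = 0.328 by edgeR). Over 16 alternatives the difference ran from -1.01 to -0.62 and its adjusted p from 0.147 to 0.6.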

How the results depend on the processing

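Each of the 5 tested members was refitted under 16 or 17 alternatives per comparison, in 420 results. Direction and side of the threshold were kept in 390, a call was lost in 10 and gained in 7, and the sign changed in 13. The rises of Btg1, Btg2 and Tob1 with doxorubicin were called in both lines under every alternative, with log2 fold changes from 1.59 to 2.28, 3.16 to 3.75 and 2.09 to 2.57 in WT. The number of members called stayed at 3 in WT cells, and in Cfp1−/− cells it was 4, against 3 with total count scaling or the limits of fold and mean count and 3 to 4 with a replicate left out. Where that leaves 1 library in a group, it is assumed to vary like the others.

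Between the untreated lines 2 members were called, against 1 in the fit of these groups alone, 0 with the limits of fold and mean count and 1 to 2 with a replicate left out. Under doxorubicin 0 were called, against 1 with total count scaling, 2 with the first technical replicates alone, 1 without the affected technical replicate and 1 without the second technical replicates of replicate 1 of both treated groups, a setting chosen after seeing the data. The limits of fold and mean count lowered the genes called from 7607 to 1246 in WT, from 7692 to 1199 in Cfp1−/− cells, from 5362 to 525 between the untreated and from 4074 to 412 between the treated lines. With a replicate left out they ran from 3075 to 5624 and from 1822 to 4110 in the last 2. The response difference, with 37 genes, gave 216 with DESeq2, 133 without the filter and 0 to 13 with a replicate left out.

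Signs changed among values near 0. With total count scaling Btg3 was 0.12 in the WT response, and under doxorubicin Btg2 was 0.079 and Btg3 0.085 between the lines. In that comparison Btg3 was 0.10 with first technical replicates alone, and with a replicate left out Btg2 ran from -0.17 to 0.15 and Btg3 from -0.15 to 0.12. In the response difference, Btg1 ran from -0.45 to 0.22 and Btg3 from -0.25 to 0.019 with a replicate left out. The cause of these changes was not tested. Total count scaling moved the median of all genes by 0.31 and 0.21 in the WT and Cfp1−/− responses and by 0.19 between the untreated lines, and calls were then 5731 higher and 1836 lower in WT, against 4174 and 3433. They were 5271 and 2057 in Cfp1−/− cells, against 4386 and 3306, 3849 and 1610 between the untreated lines, against 2825 and 2537, and 2824 and 1255 between the treated ones, against 2374 and 1700. For the response difference they were 11 and 24, against 18 and 19. Without the exon length the order of Btg1, Btg3, Tob1 and Tob2 changed.

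The groups share replicate numbers, but no source says what a number shares, and the correlation of deviations between groups ran from 0.184 to 0.608. With the number as a replicate block 243 genes were called for the response difference, and under doxorubicin 2 members, Tob1 (0.48) and Tob2 (-0.51), while Btg2 was 0.00024 there. Btg3 had 127 to 261 raw counts in a library, and with 2 replicates a group the SE of its log2 fold change between groups was near 0.21.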
